A study of Mus musculus with 10 samples.

Results

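The genes described here encode pore-forming gasdermins (Gsdmc2, Gsdmc3, Gsdmc4 and Gsdmd), inflammatory caspases (Casp1 and Casp4) and the proteins that start, restrain or carry out necroptosis (Casp8, Ripk3, Mlkl and Zbp1). They were selected by gene symbol, with earlier results of these data known. All 10 were found among the 24062 symbols of the count files. RNA was sequenced from jejunum of C57BL/6 mice at postnatal day 5 (P5), with 5 libraries each from WT and KSR23 mice. KSR23 mice carry a cassette for both subunits of IL-23, p19 and p40, in the ROSA26 locus behind a floxed STOP, and express it in keratinocytes because cre is driven by the K14 promoter. The WT group has no other allele or treatment in its labels, and the study describes its controls as littermates. The study calls its libraries biological replicates. The labels do not say whether each library came from 1 animal, so p-values measure the spread between these libraries, which may be partly technical.

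Pyroptosis and necroptosis are forms of death in which the cell membrane ruptures and inflammatory contents are released. In pyroptosis, sensors assemble inflammasomes that activate caspase-1, bacterial lipopolysaccharide activates caspase-11 (encoded by Casp4 in the mouse), and both caspases cut gasdermin D, whose freed end forms pores through which mature IL-1 family cytokines leave the cell. In necroptosis, RIPK3, which can be engaged by RIPK1, TRIF or ZBP1, phosphorylates MLKL, which then permeabilises the membrane, while caspase-8 blocks this route by cutting the kinases. Gut epithelium is known to express gasdermin C family genes and to shed dying cells throughout life.

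Values are counts per 1000000 reads (CPM), which are read counts scaled to a common library total adjusted by TMM (trimmed mean of M-values). Library totals ran from 25.5 to 60.9 M counts, and the 10 genes had between 10 and 50288 counts in a library. A gene was called when the likelihood ratio test of edgeR gave a Benjamini-Hochberg adjusted p under 0.05 across all 17632 genes with at least 5 counts in at least 1 library. The quasi-likelihood F test of the same package, a stricter test, was run beside it. Replicates 4 and 5 of both groups stood apart from the others, since each held the highest or lowest value of its group at 8.54 to 18.4% of genes, against 45.7 to 75.6% for replicates 1 to 3 and 40% for exchangeable libraries. Their values were thus at neither end of the group more often than exchangeable libraries would be. Whether they came from separate animals or hold material mixed from other samples was not tested. Every n of 5, SD and permutation p given here takes them to be independent samples, and would rest on fewer samples if they are not. Counts of calls are therefore also given for replicates 1 to 3 alone, an alternative chosen because this was already known. Of the genes of the 2 IL-23 subunits, Il12b was higher in KSR23 jejunum (adjusted p = 0.00364, 0.109 ± 0.0624 CPM in WT against 0.553 ± 0.335, SD, n = 5 per group) and Il23a did not pass the test (0.23 ± 0.183 and 0.45 ± 0.1 CPM, adjusted p = 0.27).

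Gsdmc2, Gsdmc3 and Gsdmc4 lie side by side on the minus strand of chromosome 15 (build mm10, 63824346 to 63845177, 63857724 to 63878558 and 63891264 to 63912297) and are near-copies of each other. Their coding sequences were 97.1% identical between Gsdmc2 and Gsdmc3, 93.5% between Gsdmc2 and Gsdmc4, and 93.4% between Gsdmc3 and Gsdmc4, over 1440 coding bases each. A read of 75 bases can be given to 1 of the genes only where they differ. The following 75 coding bases held the most differences, with capitals at the 19 columns in which the 3 genes are not all alike. They start at coding base 788 in Gsdmc2 and Gsdmc3 and at 794 in Gsdmc4, and span an intron between the genomic ends chr15:63826884-63827790, chr15:63860314-63861210 and chr15:63893831-63894699 (GRCm38, minus strand).
Gsdmc2: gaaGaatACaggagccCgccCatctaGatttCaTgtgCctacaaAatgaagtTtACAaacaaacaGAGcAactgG
Gsdmc3: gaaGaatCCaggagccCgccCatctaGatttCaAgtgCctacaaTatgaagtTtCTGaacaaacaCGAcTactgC
Gsdmc4: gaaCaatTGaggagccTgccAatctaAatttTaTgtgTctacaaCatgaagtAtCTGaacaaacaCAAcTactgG

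The first 75 coding bases, shown next at their Gsdmc4 position (chr15:63902856-63902930, GRCm38, minus strand), were identical in all 3 genes, and no capital is therefore printed.
Gsdmc2, Gsdmc3 and Gsdmc4: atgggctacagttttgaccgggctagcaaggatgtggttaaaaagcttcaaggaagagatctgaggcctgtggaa

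Of 1162 ungapped windows of 75 bases in the aligned coding sequences, 319 held no difference between the 3 genes. Over whole transcripts, 39.3% of the 75-base stretches of Gsdmc2, 35.8% of those of Gsdmc3 and 28.5% of those of Gsdmc4 also occurred in another gene. Reads that fitted several places entered no gene, so the counts of the 3 genes understate them and the split between them is uncertain. Of the other 7 genes, Casp8 shared 1.95% of its stretches and the rest shared none.

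Of the 10 genes, 6 were higher in KSR23 jejunum (Gsdmc2, Gsdmc4, Gsdmd, Casp8, Ripk3 and Zbp1), 1 was lower (Casp1), and 3 did not pass the test (Gsdmc3, Casp4 and Mlkl). Over all genes tested, 18.5% were called, 9.73% as higher and 8.76% as lower. With library totals in place of TMM factors, 43.2% of the calls over all genes were higher, against 52.6% with TMM, and the 10 genes still gave 6 higher and 1 lower. The median log2 fold change (KSR23 over WT) was 1.25 over the 10 genes and 0.03 over all genes. The 10 genes were chosen with earlier results of these data known, so these shares and medians describe them and test nothing. The near-copies Gsdmc2, Gsdmc3 and Gsdmc4 are counted separately. The quasi-likelihood F test called 7 of the 10 and 15.4% of all genes. With replicates 1 to 3 alone, Ripk3 was the only call of the likelihood ratio test (1 of 10, against 3.36% of all genes). On these 6 libraries the quasi-likelihood F test of edgeR called 0 of the 10 against 0.812% of all genes, with an unadjusted p under 0.05 for 6 of the 10 and for 11.8% of all genes. All 10 genes kept the sign of their difference there. In a bulk tissue, a change in the number of cells of a type cannot be told apart from a change in RNA per cell.

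**Figure D1:**
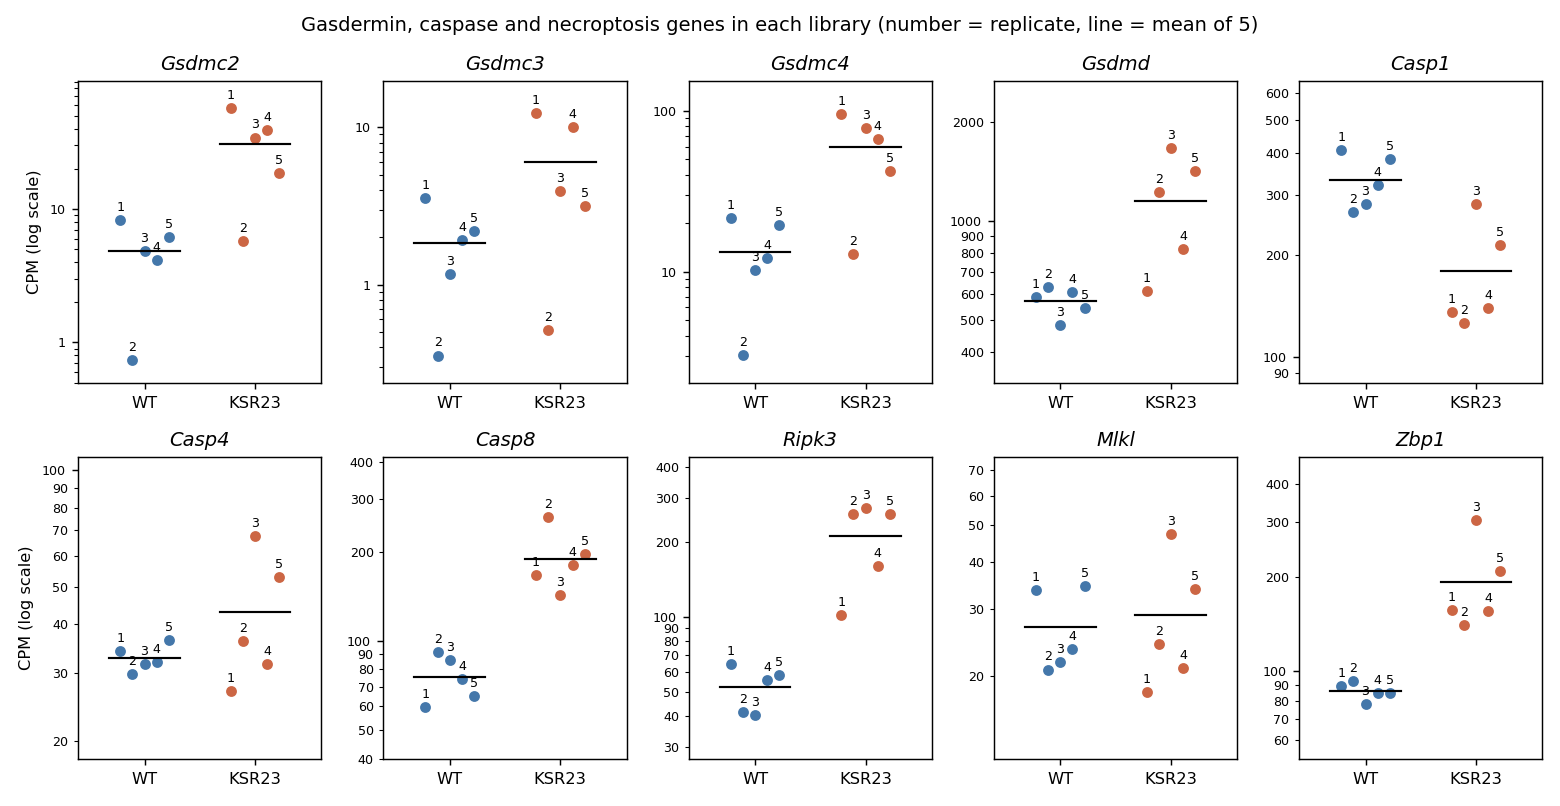
CPM of each gene (log axis, its range set for each panel) in the 5 WT and the 5 KSR23 libraries, with the replicate number above each point and a line at the group mean. The points of the 2 groups do not overlap for Casp8, Ripk3 and Zbp1, whereas those of Mlkl and Casp4 overlap, with KSR23 replicate 3 above every WT point in both.

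Levels can be compared between genes only per length, as CPM per kilobase of exon. In WT jejunum, Gsdmd (240 ± 24.8) and Casp1 (223 ± 40.8, SD, n = 5) stood highest on this scale and differed by less than their spread. Casp8 (26.0 ± 4.64), Zbp1 (24.4 ± 1.59) and Ripk3 (22.7 ± 4.66) followed and likewise differed by less than their spread. Mlkl (11.7 ± 2.92), Casp4 (8.84 ± 0.691) and Gsdmc4 (6.37 ± 3.57) came next, with neighbours at about 1 SD from each other, and Gsdmc2 (2.08 ± 1.2) and Gsdmc3 (0.787 ± 0.510) were lowest. In KSR23 jejunum, Gsdmd stood alone at the top (484 ± 181). Casp1 (120 ± 45.3) and Ripk3 (92.1 ± 33.3) were within their spread of each other, as were Casp8 (65.4 ± 15.5) and Zbp1 (54.8 ± 19.1). Gsdmc4 (28.4 ± 15.6) was then above Mlkl (12.6 ± 5.18) and Casp4 (11.6 ± 4.55) in mean, Gsdmc2 (13.3 ± 8.45) was level with both, and Gsdmc3 was again lowest (2.58 ± 2.14). These levels per kilobase are too low for the gasdermin C genes to the extent that their reads were shared.

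The gasdermin C genes showed the widest spread within groups among the 10. Gsdmc2 was measured at 8.33, 0.743, 4.81, 4.12 and 6.12 CPM in WT replicates 1 to 5 and at 56.8, 5.77, 34.3, 38.8 and 18.5 CPM in KSR23 replicates 1 to 5. Of the KSR23 libraries, 4 lay above every WT library, while KSR23 replicate 2 lay inside the WT range. Gsdmc2 rose 6.41-fold (log2 fold change 2.68, SE 0.61, adjusted p = 0.000553, and 0.0149 by the quasi-likelihood F test).

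Gsdmc4, the most abundant of the 3, was measured at 21.6, 3.04, 10.2, 12.2 and 19.4 CPM in WT and at 95.8, 12.8, 78.7, 67.1 and 42.5 CPM in KSR23. The same KSR23 library, replicate 2, again fell among the WT values and the other 4 lay above them. Gsdmc4 rose 4.47-fold (log2 fold change 2.16, SE 0.55, adjusted p = 0.00208, and 0.0224 by the quasi-likelihood F test). Gsdmc3, the least abundant, was measured at 3.53, 0.354, 1.17, 1.93 and 2.18 CPM in WT and at 12.3, 0.516, 3.94, 10.1 and 3.16 CPM in KSR23. Only 3 of the KSR23 libraries lay above every WT library. Its log2 fold change of 1.71 (95% interval 0.34 to 3.09) did not pass the test (adjusted p = 0.079), and it passed without KSR23 replicate 2 (2.06, adjusted p = 0.00801) or without WT replicate 1 (2.09, adjusted p = 0.0426).

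Because reads are divided uncertainly among these 3 genes, their counts were also summed. The sum was 33.5, 4.14, 16.2, 18.2 and 27.7 CPM in WT (19.9 ± 11.3, SD, n = 5) and 165, 19.1, 117, 116 and 64.1 CPM in KSR23 (96.2 ± 56.0, SD, n = 5), a 4.82-fold difference of the means. Replicate 2 was the lowest of its group in both, and 4 of 5 KSR23 libraries lay above every WT library. Gsdmc2 made up 17.9 to 29.6% of the sum in WT libraries and 28.8 to 34.4% in KSR23 libraries, ranges that overlap slightly. Gsdmc3 made up 8.96 ± 1.55% of the WT sums and 5.44 ± 2.60% of the KSR23 sums (SD, n = 5), with its lowest share in KSR23 replicate 2 (2.7%, Wilson 95% interval 1.67 to 4.34%). Gsdmc4 held the largest share in every library (67.6 ± 4.21% in WT and 63.3 ± 4.90% in KSR23). The shares of Gsdmc3 and Gsdmc4 overlapped between the groups. These intervals cover counting error only, since PCR copies could not be recognised.

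**Figure D2:**
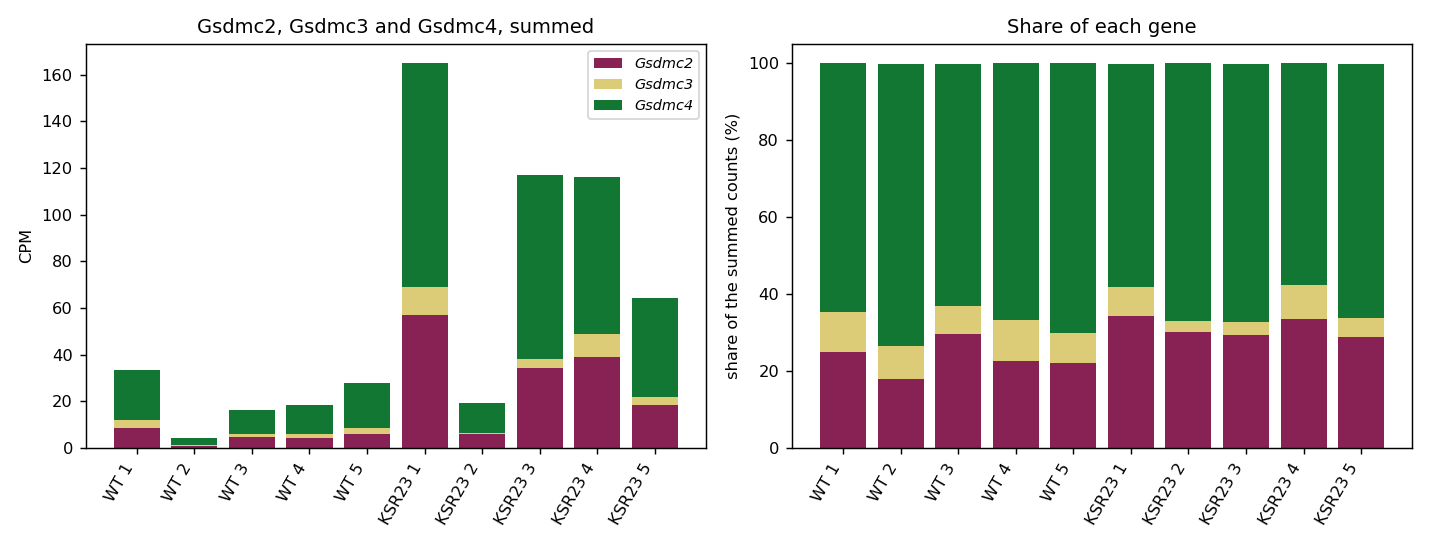
Summed CPM of Gsdmc2, Gsdmc3 and Gsdmc4 in each library (left, stacked bars) and the percentage of the summed counts that each gene took (right). KSR23 replicate 2, at 19.1 CPM, is the only KSR23 library within the WT range of 4.14 to 33.5 CPM, and Gsdmc4 takes the largest share in all 10 libraries.

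Gsdmd encodes the gasdermin that inflammatory caspases cut, and lies elsewhere on chromosome 15 (75862327 to 75867408, mm10, plus strand). It was measured at 586, 631, 481, 607 and 545 CPM in WT and at 614, 1230, 1670, 820 and 1420 CPM in KSR23. KSR23 replicate 1 fell within the narrow WT range, whose highest value was 1.31 times its lowest, and the other 4 KSR23 libraries lay above it. Gsdmd rose 2.01-fold (log2 fold change 1.01, SE 0.30, adjusted p = 0.00734, and 0.0251 by the quasi-likelihood F test).

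The inflammatory caspase genes are neighbours on chromosome 9 (mm10, plus strand, Casp1 at 5298517 to 5307265 and Casp4 at 5308828 to 5336783) and did not move together. Casp1, which encodes the protease that matures IL-1β and IL-18, was measured at 407, 268, 283, 322 and 385 CPM in WT and at 136, 126, 283, 140 and 215 CPM in KSR23. Of the KSR23 libraries, 4 lay below every WT library and KSR23 replicate 3 lay within the WT range. Casp1 fell to 0.54 of its WT level (log2 fold change -0.89, SE 0.30, adjusted p = 0.0212, and 0.038 by the quasi-likelihood F test). This call did not survive leaving out any 1 of 6 libraries, WT replicates 1, 4 and 5 and KSR23 replicates 1, 2 and 4, where the adjusted p ran from 0.0636 to 0.094 and the log2 fold change from -0.85 to -0.74. The summed level of 10 macrophage and dendritic cell markers was also lower in KSR23 (664 to 900 CPM, against 919 to 1110 in WT). Of these markers Cd68, C1qb and C1qc were called lower, and Cd14 was called higher (log2 fold change 1.81, adjusted p = 9.35e-06). Csf1r, the largest of them, was not called (-0.26, adjusted p = 0.458). The neutrophil marker sum was lower as well (19.3 to 29.5 CPM in WT, 6.61 to 14.7 in KSR23). The part of any cell type in the lower Casp1 level was not tested.

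Casp4, whose product senses intracellular lipopolysaccharide, was measured at 34.2, 29.8, 31.6, 32 and 36.4 CPM in WT and at 27.0, 36.3, 67.7, 31.7 and 52.9 CPM in KSR23. KSR23 replicates 3 and 5 lay above every WT library and replicate 1 below every one. The log2 fold change of 0.39 (95% interval -0.22 to 1.0) did not pass the test (adjusted p = 0.424).

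Casp8, which encodes the protease that starts death receptor apoptosis and restrains necroptosis, maps to chromosome 1 (58795374 to 58847503, mm10, plus strand). It was measured at 59.9, 91.4, 86.2, 74.3 and 65.0 CPM in WT and at 166, 261, 143, 180 and 196 CPM in KSR23. Every KSR23 library lay above every WT library. Casp8 rose 2.51-fold (log2 fold change 1.33, SE 0.26, adjusted p = 1.96e-05, and 0.00172 by the quasi-likelihood F test). The annotated gene Gm37760 overlaps Casp8 on the same strand.

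Ripk3 encodes the kinase on which the necroptosis signals converge, and lies on chromosome 14 (55784995 to 55788865, mm10, minus strand). It was measured at 64.5, 41.6, 40.3, 55.8 and 58.3 CPM in WT and at 102, 259, 275, 160 and 259 CPM in KSR23. The groups did not overlap, and KSR23 replicate 1 was closest to the WT values. Ripk3 rose 4.06-fold (log2 fold change 2.02, SE 0.32, adjusted p = 6.97e-08, and 0.000866 by the quasi-likelihood F test). It was the only one of the 10 called by the likelihood ratio test on replicates 1 to 3 alone (log2 fold change 2.16, adjusted p = 0.0109), where the quasi-likelihood F test gave an adjusted p of 0.121.

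Zbp1, on chromosome 2 (173206612 to 173218923, mm10, minus strand), encodes a sensor of Z-form nucleic acids that engages RIPK3 and is known to be induced by interferon. It was measured at 89.4, 93.0, 78.2, 84.6 and 84.9 CPM in WT and at 157, 140, 305, 156 and 209 CPM in KSR23. The WT values were the tightest of the 10 genes, with a highest value 1.19 times the lowest, and every KSR23 library lay above them. Zbp1 rose 2.25-fold (log2 fold change 1.17, SE 0.28, adjusted p = 0.000484, and 0.00568 by the quasi-likelihood F test).

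Mlkl, which encodes the protein that ruptures the membrane in necroptosis, lies on chromosome 8 (111311797 to 111338177, mm10, minus strand). It was measured at 33.8, 20.8, 21.8, 23.5 and 34.6 CPM in WT and at 18.1, 24.3, 47.5, 21.0 and 33.9 CPM in KSR23. KSR23 replicate 3 lay above the WT range, replicate 1 lay below it, and the others were inside. The log2 fold change was 0.10 (95% interval -0.56 to 0.77, adjusted p = 0.879), and its sign turned without KSR23 replicate 3 (-0.15) or with library totals in place of TMM factors (-0.04). Mlkl overlaps Gm45712 on the opposite strand, and no source used here says whether the counting used strand.

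For 3 of the 10 genes, Casp8, Ripk3 and Zbp1, the groups had no CPM range in common, against 14.4% of all genes tested. KSR23 replicate 3 held the highest value of its group for 6 of the 10 genes (Gsdmd, Casp1, Casp4, Ripk3, Mlkl and Zbp1) and the lowest for 1. KSR23 replicate 1 held the highest for all 3 gasdermin C genes. Over 9737 genes, these libraries held the highest or lowest value of the group at 75.6% and 57.1%, so such positions are not particular to the 10 genes.

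**Figure D3:**
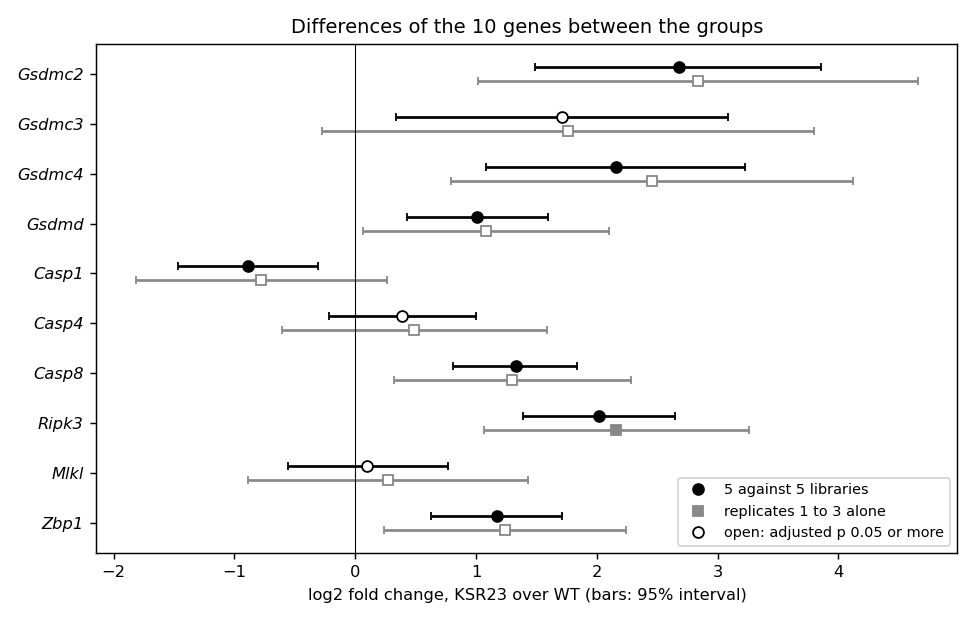
Log2 fold change of each gene, KSR23 over WT, with its 95% interval, from all 10 libraries (black circles) and from replicates 1 to 3 alone (grey squares). Filled symbols mark an adjusted p under 0.05 in the likelihood ratio test, which holds for 7 genes with all libraries and for Ripk3 alone with 6 libraries.

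To ask whether partners of a pathway moved by the same amount, 3 ratios of counts were taken within each library, which do not depend on how libraries were scaled. Each was compared between groups by a two-sided exact permutation test. The log2 ratio of Gsdmd to Casp1, a substrate and its protease, was 0.53, 1.23, 0.76, 0.92 and 0.50 in WT (0.79 ± 0.30, SD, n = 5) and 2.18, 3.29, 2.56, 2.55 and 2.72 in KSR23 (2.66 ± 0.41). The groups did not overlap and differed by 1.87. The log2 ratio of Mlkl to Ripk3, a substrate and its kinase, was -0.93, -1.0, -0.88, -1.24 and -0.75 in WT (-0.96 ± 0.18) and -2.49, -3.41, -2.53, -2.93 and -2.93 in KSR23 (-2.86 ± 0.38), a difference of -1.90 with no overlap.

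The log2 ratio of Casp4 to Casp1, the neighbouring inflammatory caspase genes, was -3.57, -3.17, -3.16, -3.33 and -3.40 in WT (-3.33 ± 0.17) and -2.33, -1.79, -2.06, -2.14 and -2.02 in KSR23 (-2.07 ± 0.20), a difference of 1.26 with no overlap. The exact permutation p was 0.00794 for each ratio, the smallest that 5 against 5 libraries allow. Adjustment over the 3 ratios leaves equal p-values unchanged, so the adjusted value of 0.00794 adds nothing. These ratios rest on the same counts as the single genes, so their differences follow from those given above. The first and the last share Casp1. How many other pairs of genes separate the groups as fully was not tested. Replicates 1 to 3 alone gave differences of 1.84, -1.87 and 1.24 in the same order, where 3 against 3 libraries cannot go below an exact permutation p of 0.1.

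**Figure D4:**
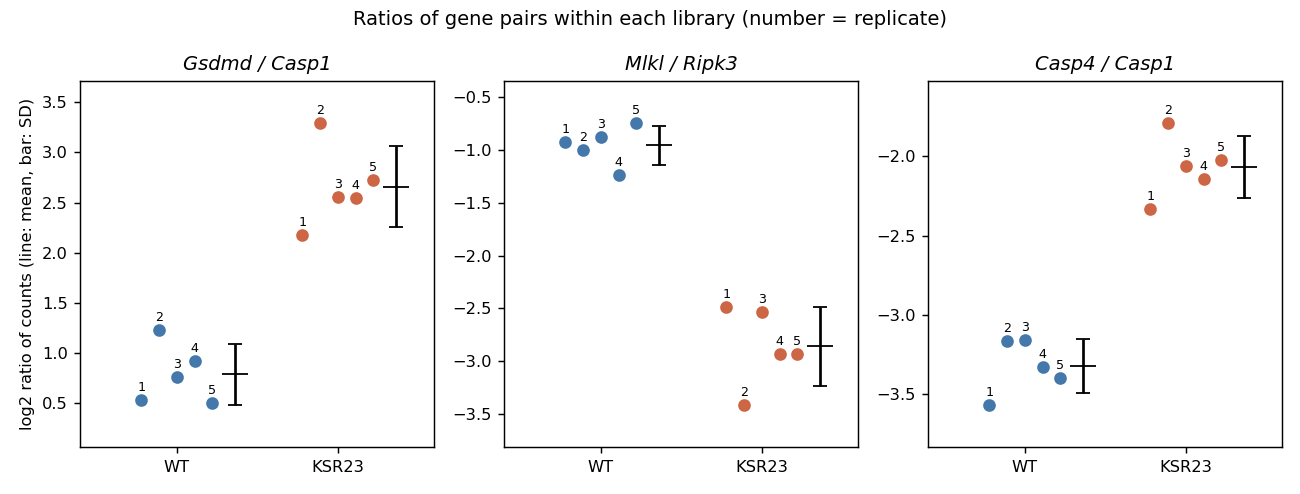
Log2 ratio of counts of Gsdmd to Casp1, Mlkl to Ripk3 and Casp4 to Casp1 in each library, with the replicate number above each point and the group mean with its SD beside the points. For each ratio all 5 KSR23 libraries lie on the same side of all 5 WT libraries.

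Other genes of the same pathways were read from 6 lists. Of 79 listed genes, 76 were tested and 19 (25%) were higher in KSR23, with 0 lower by the likelihood ratio test, where 9.73% of all genes were higher. Lower calls appeared under 4 alternatives, for Casp6 and Otulin with library totals (14 of 16 calls higher) or without KSR23 replicate 3 (17 of 19), for Otulin with 5 or more counts required in every library (18 of 19), and for Nlrp12 without KSR23 replicate 5 (15 of 16). These 3 genes were named after their values were seen. The quasi-likelihood F test called 16 of the 76 (15.4% of all genes). When replicates 4 and 5 were dropped, the likelihood ratio test called 3 of the 76, a share close to the 3.36% of all genes. The median log2 fold change of the tested genes was 0.54.

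None of the other gasdermins passed the test (0 of 4 tested, against 18.5% of all genes; all 6 are named here). Gsdme differed by 0.73 on the log2 scale (SE 0.36, adjusted p = 0.153, 5.1 to 12.3 CPM in WT and 7.06 to 17.4 in KSR23). Gsdma (0.58, adjusted p = 0.412) and Gsdma2 (0.38, adjusted p = 0.788) stayed under 2 CPM in every library, and Pjvk reached at most 0.516 CPM (log2 fold change 0.61, SE 1.73, adjusted p = 0.854). Gsdmc itself had 0 counts in every WT library and at most 4 in a KSR23 library, and Gsdma3 had 0 counts in all 10. Of 6 other caspases tested, 0 were called.

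Of 23 inflammasome sensors and adaptors, 8 were higher in KSR23 (Nlrc4, Naip1, Naip2, Dhx15, Gbp2, Gbp3, Gbp5 and Gbp7) and 0 lower, with a median log2 fold change of 0.53. The share over all genes was 18.5% called, 9.73% as higher. The quasi-likelihood F test also called 8 (15.4% of all genes), and 0 were called by the likelihood ratio test when replicates 4 and 5 were dropped (3.36% of all genes). Gbp5 and Gbp2 encode guanylate-binding proteins that attack pathogen vacuoles and expose lipopolysaccharide. Gbp5 rose from 0.53 to 2.20 CPM in WT libraries to 2.26 to 6.2 in KSR23 (log2 fold change 2.02, SE 0.42, adjusted p = 6.77e-05), and Gbp2 from 6.01 to 11.6 CPM to 21.4 to 33.8 (1.63, SE 0.29, adjusted p = 2.15e-06). NAIP proteins detect bacterial flagellin and secretion needles. Naip1 rose from 30.0 to 64.6 CPM to 71.3 to 205 (1.37, SE 0.34, adjusted p = 0.000967) and Naip2 from 7.89 to 11.8 CPM to 15.2 to 35.3 (1.21, SE 0.33, adjusted p = 0.00317), although 20.5% and 10.7% of their 75-base stretches occur in other genes. Pycard, the adaptor that links most sensors to caspase-1, was abundant in both groups (536 to 644 CPM in WT, 443 to 773 in KSR23) and did not pass the test (log2 fold change 0.09, adjusted p = 0.862).

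Among 10 genes of the IL-1 family and of membrane rupture, 2 were higher and 0 lower, with a median of 0.16. This count is close to the 18.5% called over all genes, of which 9.73% were higher. Without replicates 4 and 5 the likelihood ratio test called 1 of them, Il18. Il18, a caspase-1 substrate made by gut epithelium, rose from 17.0 to 34.1 CPM in WT libraries to 240 to 666 in KSR23 (log2 fold change 4.2, SE 0.33, adjusted p = 3.51e-26), and both tests still called it without replicates 4 and 5 (adjusted p = 1.81e-09 and 0.0134). Il18bp, which encodes the inhibitor that binds IL-18, rose from 11.1 to 17.6 CPM to 23.5 to 53.9 (1.39, SE 0.31, adjusted p = 0.000212), and was not called without replicates 4 and 5 (adjusted p = 0.175, and 0.253 by the quasi-likelihood F test). Il1b, the other classical caspase-1 substrate, gave -0.56 (SE 0.50, adjusted p = 0.486).

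A list of 10 genes joined TNF family ligands, their receptors with or without a death domain, and the Toll-like receptors Tlr3 and Tlr4. Of these, Tnf, Tnfrsf1b, Tlr3 and Tlr4 were higher and 0 were lower, with a median of 0.76, where 18.5% of all genes were called and 9.73% were higher. Of the 10, 2 were called by the quasi-likelihood F test (15.4% of all genes), and 0 by the likelihood ratio test without replicates 4 and 5 (3.36% of all genes). Tnf, the prototype ligand, rose from at most 14 counts in a WT library to 43 to 84 in KSR23 (log2 fold change 2.18, SE 0.50, adjusted p = 0.000276). Tlr3, a receptor for double-stranded RNA that signals through TRIF, rose from 1.72 to 2.74 CPM to 3.49 to 6.56 (1.07, SE 0.31, adjusted p = 0.0071). Tnfrsf1b (1.30, adjusted p = 0.0322) and Tlr4 (0.91, adjusted p = 0.0491) were not called by the quasi-likelihood F test (adjusted p = 0.064 and 0.0618), and their groups overlapped.

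Of 23 adaptors and regulators of RIPK1, caspase-8 and RIPK3, 5 were higher (Tnfaip3, Birc3, Cyld, Spata2 and Tbk1) and 0 lower, with a median of 0.51. The count is near the 18.5% called over all genes, of which 9.73% were higher. Without replicates 4 and 5 the likelihood ratio test called 2 of them, Tnfaip3 and Birc3. Tnfaip3 encodes A20, a ubiquitin-editing enzyme that limits NF-κB and necroptosis, and rose from 4.88 to 7.55 CPM in WT libraries to 23.7 to 35.7 in KSR23 (log2 fold change 2.33, SE 0.28, adjusted p = 7.38e-14). Without replicates 4 and 5 both tests still called it (adjusted p = 0.000747 and 0.0399). Birc3, encoding the ubiquitin ligase cIAP2, rose from 13.6 to 21.6 CPM to 39.0 to 81.2 (1.65, SE 0.30, adjusted p = 2.65e-06). Cyld, a deubiquitinase that acts on RIPK1, rose by 1.05 (SE 0.27, adjusted p = 0.0015), and its partner Spata2 by 1.36 (SE 0.45, adjusted p = 0.0206, and 0.0501 by the quasi-likelihood F test). Ripk1 itself (log2 fold change 0.89, adjusted p = 0.249), the adaptor Fadd (-0.47, adjusted p = 0.656) and Cflar, whose product holds caspase-8 in check (0.72, adjusted p = 0.0644), did not pass the test.

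**Figure D5:**
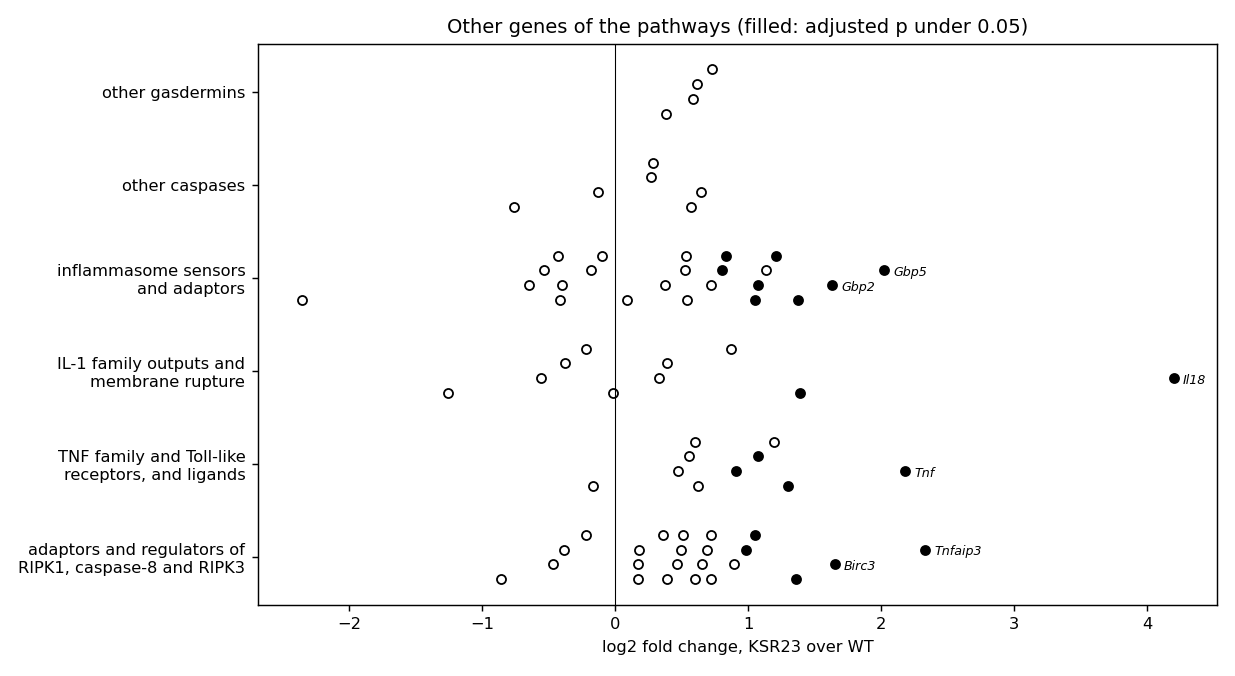
Log2 fold change, KSR23 over WT, of the 76 tested genes of 6 pathway lists, 1 point per gene, filled where the adjusted p of the likelihood ratio test was under 0.05. All 19 filled points lie to the right of 0, led by Il18 at 4.2, and the lists of other gasdermins and other caspases hold none.

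The genes whose profile over the 10 libraries lay nearest to each gasdermin and to Zbp1 were found by the root mean square difference of centred log2 CPM. For the summed gasdermin C genes these were Bend4 (0.47), Gbp5 (0.62), Nlrc5 (0.63), Iigp1 (0.71) and Dhrs9 (0.71), where the median gene of 12886 lay at 1.67. Of these, Gbp5 is also on the inflammasome list. For Gsdmd they were Neurl4 (0.10), Nop2 (0.12), Eftud1 (0.13), Cldn15 (0.13) and Eri2 (0.14), with a median of 0.80 over 12888 genes. For Zbp1 the nearest genes included AA986860 (0.12), Btnl4 (0.13), Naip2 (0.14) and Slc44a4 (0.15), with a median of 0.83. These are descriptions over the 10 libraries, in which the difference between the groups takes part.

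RefSeq promoter sequences (GRCm38.p6, 250 bases before the start site) were at hand for Casp1, Casp4, Casp8, Gsdmc3, Mlkl and Ripk3, and were searched on both strands for the STAT motif TTCNNNGAA and the core of the interferon-stimulated response element GAAANNGAA. Neither run of letters occurred in any of them, where 7.02% and 7.13% of 32851 promoters of that length held them.

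Markers of the cell types that the tissue could hold were summed in each library. The 12 epithelial markers summed to 11100 to 18400 CPM in WT and 8270 to 13100 in KSR23. Fabp2 was the largest part of this sum in every library and was lower in KSR23 (9960 ± 2800 CPM in WT, 4370 ± 2060 in KSR23). The shift of the sum therefore follows this gene and does not describe the 12 markers as a set. Cdh1 and Krt20 were higher, and the median log2 fold change was 0.32, opposite in sign to the shift of the sum. Pan-leukocyte markers overlapped (210 to 268 CPM in WT, 189 to 430 in KSR23, with Lcp1 higher and Cd52 lower), as did B and plasma cell markers (6.13 to 8.14 and 4.93 to 11.5). Macrophage and dendritic cell markers were lower in sum (Cd68, C1qb and C1qc lower and Cd14 higher, of 10, median log2 fold change -0.50). The sum of neutrophil markers was also lower (19.3 to 29.5 and 6.61 to 14.7), but of the 7 tested only Retnlg was lower (15 ± 1.41 CPM in WT and 2.18 ± 0.958 in KSR23, SD, n = 5), Elane was higher on 0 counts in each WT library against 0 to 7 in KSR23, and the median log2 fold change was 0.37. T, NK and innate lymphoid cell markers ranged from 150 to 186 CPM in WT and from 89.7 to 175 in KSR23 (Cd3g, Nkg7 and Gzma lower, of 12, median log2 fold change -0.07). Smooth muscle and stromal markers overlapped (1940 to 3310 and 2040 to 2650, of 8 tested Acta2 lower), as did squamous markers, which stayed under 6 CPM in sum (of 6 tested Krt4 higher and Krt15 lower). Pancreatic acinar markers summed to 99.7 to 217 CPM in WT and 5.90 to 15.6 in KSR23, all 6 tested being lower, while Amy2a5 had 0 counts in every library. By the quasi-likelihood F test, Cdh1, C1qc, Elane, Cpa1, Acta2, Krt4 and Krt15 were not called (adjusted p from 0.0515 to 0.0838). The part of these shifts in the 7 called genes was not tested.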

How the data were processed

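RNA from P5 jejunum was copied from oligo-dT primers and amplified with a PCR kit for small inputs. It was tagged by transposition and read as single ends of 75 bases, without molecular identifiers. The Wilson intervals of the gasdermin C shares therefore cover counting error only. The intervals of the log2 fold changes come from the edgeR fit and also hold the spread between libraries. The authors mapped reads to mm10 with TopHat2 2.1.0 and counted those strictly inside gene models with HTSeq 0.6.1p1. The deposited values were whole counts for 24062 symbols, neither normalized nor filtered. Reads with several alignments (8.62 to 17.1 M per library) entered no gene, and no column was left unused.

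Counts were fitted in edgeR 4.0.16 (R 4.3.3) with TMM factors and group as the only term, over 17632 genes that reached 5 counts in any library, and compared by the likelihood ratio test with Benjamini-Hochberg adjustment. This filter is one reading of the study's methods. Alternatives were the quasi-likelihood F test, DESeq2 1.42.0, RLE factors, library totals, other filters, a replicate block, leaving out each library, and replicates 1 to 3 alone. The quasi-likelihood F test on replicates 1 to 3 was added after seeing the data. Ratios used counts plus 0.5 and exact permutation (scipy 1.17.1). Positions, exon lengths and shared 75-base stretches came from GENCODE M21, and the Gsdmc windows from its transcripts on GRCm38.

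The 10 genes, the pathway and marker lists and the naming rule were chosen with earlier results of these data known. Named were the 10 genes, every other gasdermin, Pycard, Il18, Il1b, Ripk1, Fadd, Cflar and Tnf, up to 4 called genes of each other pathway list by size of change, and the 5 nearest profiles of the summed gasdermin C genes, Gsdmd and Zbp1. A few genes that this rule or the lists cover are not reported here. The marker lists held 12 epithelial, 6 pan-leukocyte, 10 macrophage and dendritic cell, 8 neutrophil, 13 T, NK and innate lymphoid, 5 B and plasma cell, 8 squamous, 8 smooth muscle and stromal, and 8 pancreatic acinar genes.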

Additional observations from a re-analysis of the deposited data

How the results depend on the processing

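The 10 genes gave 190 values under alternatives, of which 164 kept their direction and their side of the threshold, 21 lost the call, 3 gained it and 2 changed sign. The sign changes were those of Mlkl, at -0.04 with library totals alone and -0.15 without KSR23 replicate 3, the other libraries left out giving up to 0.28. The quasi-likelihood F test, RLE factors, library totals, both other filters and DESeq2 each called 7 of the 10 genes. Leaving out each library in turn called 6 to 7 of the 10 genes, 14 to 23 pathway genes and 2370 to 3802 of all genes. Replicates 1 to 3 alone called 1 of the 10, 3 pathway genes and 579 of all genes by the likelihood ratio test, and 0, 2 and 140 by the quasi-likelihood F test, which tests 6 libraries in place of 10. There the ratios differed by 1.84 (Gsdmd to Casp1), -1.87 (Mlkl to Ripk3) and 1.24 (Casp4 to Casp1), with an exact permutation p of 0.1, the smallest possible. Leaving out each library gave 1.71 to 1.99, -1.99 to -1.76 and 1.19 to 1.32.

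Replicate numbers were not treated as pairing the samples, since the deviations of same-numbered libraries correlated at -0.74, 0.41, -0.69, 0.36 and 0.49. With a replicate block, 6 of the 10 genes, 12 pathway genes and 2202 of all genes were called. Under the replicate block, Casp1 (-0.95, adjusted p = 0.051) and Gsdmd (0.93, adjusted p = 0.0741) were not called and Gsdmc3 was (1.45, adjusted p = 0.017). In the paired form of the ratios, the differences were 1.87, -1.90 and 1.26, with an exact sign permutation p of 0.0625, the smallest that 5 pairs allow. The causes of these changes were not tested. Depth limited none of the 10 genes to under 10 counts in a library, whereas Gsdmc and Gsdma3 were too shallow to test and Pjvk had a wide error.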

Other observations

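Some relatives of these genes are given here. All but Ripk1 lie outside the naming rule and were chosen after their values were seen. Casp6, an executioner caspase, did not pass the test (log2 fold change -0.76, adjusted p = 0.0774), although its CPM did not overlap between the groups (WT 529 ± 28.5, KSR23 312 ± 128, SD, n = 5 per group). Casp9 (0.64, adjusted p = 0.36), Casp2 (0.28, adjusted p = 0.538) and Casp12 (-0.13, adjusted p = 0.823) did not pass either. The pseudogene Gsdmcl-ps, a relative of the gasdermin C genes, was counted 15, 2, 1, 5 and 11 times in the WT libraries and 79, 3, 27, 35 and 38 times in those of KSR23 (1.80, SE 0.74, adjusted p = 0.074), with KSR23 replicate 2 again inside the WT range.

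Ripk1 varied widely within groups, at 9.69, 17.6, 36.3, 15.5 and 15.9 CPM in WT and 68.2, 10.3, 21.6, 56.8 and 18.9 CPM in KSR23. Ripk4 (1.19, adjusted p = 0.0728) did not pass the test, and Ripk2 stayed at or under 3.11 CPM in each library.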
